A study of Canis lupus familiaris with 4 samples.

Results

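The expression of 6 genes used to describe mammary epithelium and mammary tumours was compared between canine tumours of grade 3 and grade 1. They are the luminal secreted and surface genes TFF3, MUC1 and CLDN3, and the receptor genes PGR, ERBB2 and KIT. They were taken by name, through the dog RefSeq mRNA accession that the array design gives for each probe. All 6 genes had a probe, 8 probes in all of 43603 on the arrays, with 3 for KIT and 1 for each other gene. All 8 were well above background in both grades on all 4 arrays, and all 8 were among the 35411 probes tested.

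The groups were canine mammary tumours of grade 3, the most malignant, and of grade 1, with total RNA amplified to cRNA for two-colour arrays. Grade 3 was in Cy5 and grade 1 in Cy3 on 2 arrays, and the dyes were exchanged on the other 2, so that each of the 4 arrays gives its own ratio of grade 3 over grade 1. The labels number the arrays as biological replicates without naming dogs, tumours or extracts, so a p-value here covers only variation among 4 arrays of 1 slide, which may be technical. The protocols in the labels describe cancer cell lines cultured with monocytes and then sorted by flow cytometry, while titles and sources name tumours, so whether the RNA came from tissue or from sorted cells is unclear. Luminal keratins, EPCAM and ESR1 were not analysed here. The milk genes CSN2 and LALBA, which mark secretory mammary cells, were well above background in both grades on all 4 arrays, and so were the muscle heavy chain genes MYH2 and MYH1.

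In the mammary duct, luminal cells line the lumen and carry the hormone receptors, and myoepithelial cells surround them. TFF3 is a small secreted trefoil peptide that mucous epithelia release with mucins, and MUC1 is a membrane mucin of the apical surface. CLDN3 is a claudin of tight junctions. PGR, the progesterone receptor, is a nuclear receptor and a target gene of oestrogen signalling. ERBB2 is a receptor tyrosine kinase of the EGF receptor family that is amplified in a share of human breast cancers, and KIT is the receptor for stem cell factor, found on mast cells and on luminal progenitors of the human breast.

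Of the 6 genes, 2 were higher in grade 3, 1 was lower and 3 were not called, by limma at a threshold of 0.05 on p-values adjusted over all tested probes by Benjamini and Hochberg. TFF3 and MUC1 rose, and PGR fell, all relative to the other probes of an array; with arrays scaled to spike-in controls instead, PGR was at 0.10 (log2) and not called. CLDN3, ERBB2 and KIT, the last by each of its 3 probes, did not pass the test. With spike-in scaling all of these probes were called higher, as were 32259 of the 35411 tested probes. These shares have to be read against a broad difference between the grades: 31.1% of all tested probes were called higher and 30.5% lower, 61.6% in all, and among the 925 named genes, each by its brightest probe, 24.1% were called higher and 46.1% lower. Being called is therefore common on these arrays, and the share of 3 in 6 genes lay under the 70.2% of named genes called in either direction. A change of at least 1.5-fold was rarer: 5.41% of probes were called higher by that much, TFF3 and MUC1 among them, and 6% were called lower, PGR not among them. Over all tested probes the median absolute log2 fold change was 0.19.

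**Figure D1:**
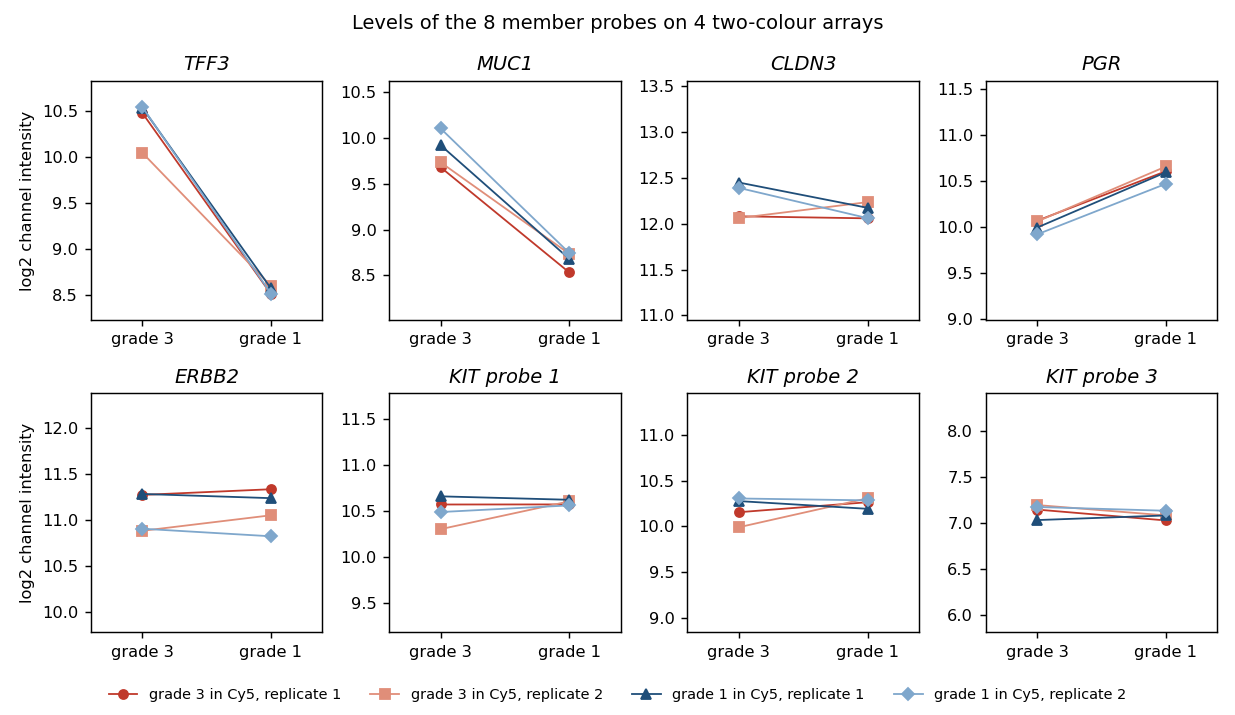
Log2 channel intensity (vertical axes, all of the same span) of each probe in grade 3 (left) and grade 1 (right), after loess and Aquantile normalisation; each line is 1 of the 4 arrays and KIT probes are numbered from the brightest. All 4 lines run down from grade 3 for TFF3 and MUC1 and up for PGR, while those of CLDN3, ERBB2 and KIT cross or lie flat.

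TFF3 changed most. Its level was 10.48, 10.05, 10.54 and 10.55 in grade 3 (log2 intensity, in the order replicates 1 and 2 with grade 3 in Cy5, then replicates 1 and 2 with grade 1 in Cy5), against 8.51, 8.60, 8.57 and 8.51 in grade 1 on the same arrays. Every grade 3 value lay above every grade 1 value, and for 44.3% of all tested probes the grades likewise did not overlap. The 4 grade 1 values were close together, while replicate 2 with grade 3 in Cy5 was the low array in grade 3. The means were 10.40 ± 0.24 in grade 3 and 8.55 ± 0.04 in grade 1 (SD, n = 4 arrays each), and the fitted fold was 3.62 higher (log2 fold change 1.86 ± 0.08 SE, 95% interval 1.69 to 2.03, limma adjusted p = 4.28e-08). Of the 35411 tested probes 98 had a larger positive change, and of the named genes 12. In unprocessed signal the probe read 1948, 1189, 1617 and 1776.5 units in grade 3 on local backgrounds of 26 to 38, and 235, 264.5, 343 and 336.5 units in grade 1 on backgrounds of 29 to 42, so the grade 1 signal was 8.10 to 9.12 times its background.

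MUC1 moved the same way by less. It had levels of 9.68, 9.73, 9.92 and 10.10 in grade 3, against 8.53, 8.74, 8.68 and 8.74 in grade 1, in the same array order. The grades did not overlap, which held for 44.3% of all tested probes. Its mean was 9.86 ± 0.19 in grade 3 and 8.67 ± 0.10 in grade 1 (SD, n = 4 each), 2.27-fold higher (log2 fold change 1.18 ± 0.05 SE, 95% interval 1.07 to 1.30, limma adjusted p = 6.08e-08). The log2 ratios were 1.15 and 1.00 with grade 3 in Cy5 and 1.24 and 1.36 with grade 3 in Cy3. Of all tested probes 321 had a larger positive change, and of named genes 25.

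CLDN3, the third of the luminal secreted and surface genes, did not pass the test. Its levels were 12.08, 12.06, 12.45 and 12.39 in grade 3, against 12.06, 12.23, 12.17 and 12.06 in grade 1, and the grades overlapped. The log2 fold change was 0.11 ± 0.05 SE (limma adjusted p = 0.0818), with a 95% interval from -0.0023 to 0.23. The dye orientations pointed in different directions, with a mean log2 ratio of -0.08 where grade 3 was in Cy5 and 0.30 where it was in Cy3. Leaving out replicate 2 with grade 3 in Cy5, the array with a ratio of -0.17, gave 0.16 and a call (limma adjusted p = 0.0215), and median centring of the arrays in place of loess gave 0.36 (limma adjusted p = 0.000199).

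**Figure D2:**
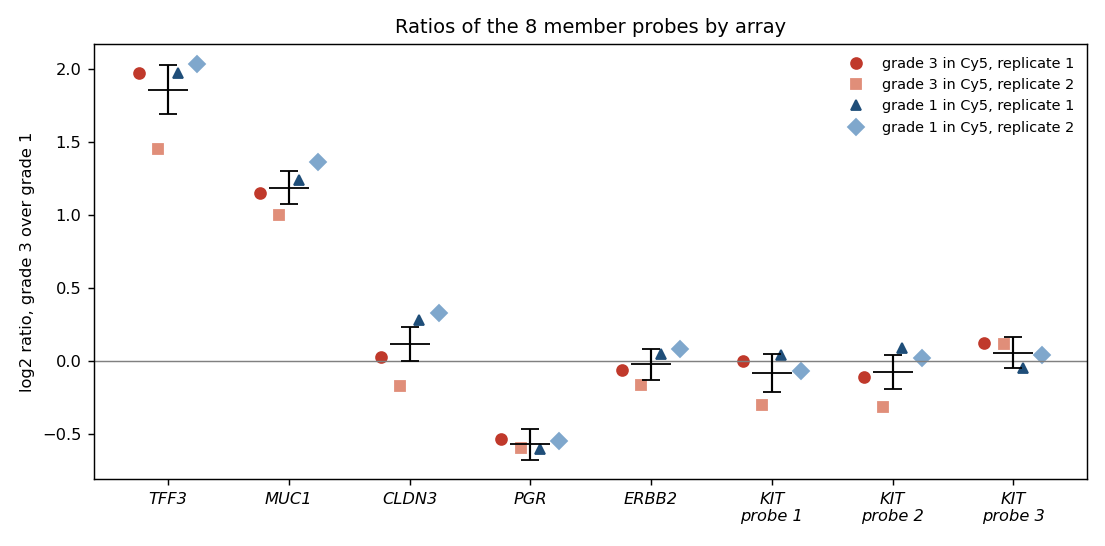
Log2 ratio of grade 3 over grade 1 (vertical axis) for the 8 probes; points are the 4 arrays by dye orientation, bars the fitted log2 fold change with its 95% interval. TFF3 and MUC1 lie above 0 and PGR below 0 on all 4 arrays, and replicate 2 with grade 3 in Cy5 is the lowest array for TFF3, MUC1, CLDN3, ERBB2 and the 2 brighter KIT probes.

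PGR was lower in grade 3, and it was the most uniform of the members over the arrays. Its levels were 10.07, 10.06, 9.99 and 9.92 in grade 3, against 10.61, 10.66, 10.60 and 10.47 in grade 1. The grades did not overlap, as for 44.3% of all tested probes. The 4 log2 ratios lay between -0.60 and -0.54, with an SD of 0.03, and the orientation means were -0.57 with grade 3 in Cy5 and -0.58 with grade 3 in Cy3. The mean level was 10.01 ± 0.07 in grade 3 and 10.58 ± 0.08 in grade 1 (SD, n = 4 each), which is 1.49-fold lower (log2 fold change -0.57 ± 0.05 SE, 95% interval -0.68 to -0.47, limma adjusted p = 4.35e-06). Among all tested probes 2233 fell further, and among named genes 143, so a fall of this size was not rare.

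ERBB2 did not pass the test. It had levels of 11.28, 10.88, 11.29 and 10.91 in grade 3, against 11.34, 11.05, 11.24 and 10.82 in grade 1. The level moved by more between arrays than between the grades of an array, with an SD of 0.22 in grade 3 and 0.23 in grade 1. The log2 fold change was -0.03 ± 0.05 SE (limma adjusted p = 0.664). Its 95% interval of -0.13 to 0.08 leaves out changes of the size seen for MUC1, TFF3 or PGR in these arrays under this normalisation. With median centring the value turned to 0.21 and was called (limma adjusted p = 0.00482).

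KIT was measured by 3 probes to 1 mRNA, and none was called. The brightest probe had levels of 10.57, 10.30, 10.66 and 10.49 in grade 3, against 10.57, 10.61, 10.62 and 10.56 in grade 1, and a log2 fold change of -0.08 ± 0.06 SE (limma adjusted p = 0.239). The second probe had levels of 10.16, 9.99, 10.28 and 10.30 in grade 3, against 10.26, 10.31, 10.19 and 10.28 in grade 1, and a log2 fold change of -0.08 ± 0.05 SE (limma adjusted p = 0.211). The ratios of these probes were -0.0007 and -0.11 on replicate 1 with grade 3 in Cy5 and had opposite signs, -0.07 and 0.02, on replicate 2 with grade 1 in Cy5, and for both the lowest ratio, -0.30 and -0.32, was on replicate 2 with grade 3 in Cy5. The dimmest probe, at 118.5 to 151 units in grade 3 and 86 to 117.5 units in grade 1 before correction, lay at 2.86 to 5.60 times its local background over both grades, and had a log2 fold change of 0.06 ± 0.05 SE (limma adjusted p = 0.334). The 95% intervals of the 3 probes together ran from -0.22 to 0.16. Leaving out replicate 1 with grade 3 in Cy5 gave the brightest probe a value of -0.16 and a call (limma adjusted p = 0.0269), and median centring turned it to 0.14 without one (adjusted p = 0.0826).

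**Figure D3:**
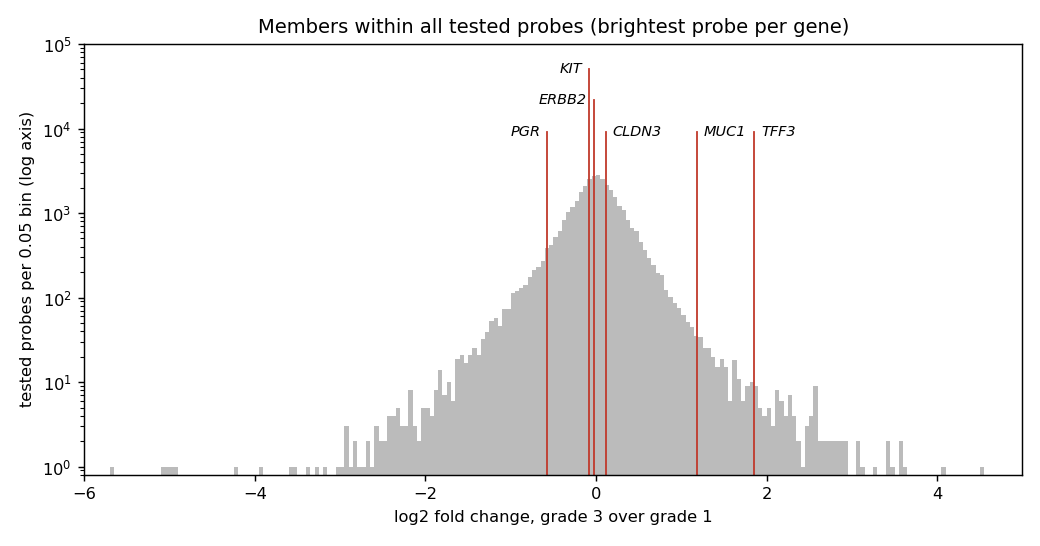
Number of tested probes (log axis) by log2 fold change of grade 3 over grade 1 (horizontal axis) in bins of 0.05, with the brightest probe of each member marked by a red line. TFF3 and MUC1 lie in the right flank, PGR at the shoulder of the left, and CLDN3, ERBB2 and KIT in the central peak.

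The relatives of these genes did not all go with them. Among trefoil factors and mucins, 4 of 14 listed genes were measured, and TFF3 and MUC1 were higher while TFF1 and TFF2 were lower, except that with spike-in scaling TFF1 and TFF2 lay above 0. TFF2, the trefoil peptide of gastric mucous neck cells, had levels of 9.80 ± 0.16 in grade 3 and 10.38 ± 0.17 in grade 1 (SD, n = 4 each) and was 1.50-fold lower (log2 fold change -0.58 ± 0.05 SE, limma adjusted p = 4.82e-06), below 0 on all 4 arrays. TFF1, an oestrogen-induced peptide in human breast cancer cells, fell by 0.19 on the log2 scale (limma adjusted p = 0.0079). The call of TFF1 was lost with marked backgrounds as measured (adjusted p = 0.148), with median centring (0.216), with no dye term (0.0518) and without replicate 1 of the arrays with grade 1 in Cy5 (0.0693). Over the luminal differentiation list as a whole 6 of 27 genes were measured, the others being TFF3, MUC1, CLDN3, PGR and KIT, and the median was 0.01.

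Tight junction genes other than claudins were higher. Of 21 listed genes 6 were measured, of which 4 rose, none fell and 2, both claudins, were not called. Among all named genes 24.1% were called higher and 46.1% lower. The median log2 fold change of the list was 0.43, beside -0.09 over all named genes. CGN, encoding the junction plaque protein cingulin, was 1.68-fold higher (log2 fold change 0.75 ± 0.05 SE) and TJP1, encoding the scaffold ZO-1, 1.58-fold (0.66 ± 0.06 SE), and the second probe of each gene gave 0.60 and 0.44. The membrane protein gene OCLN had 0.43 and was above 0 on all 4 arrays. CLDN2, at -0.10 ± 0.06 SE (limma adjusted p = 0.163), was not called, like CLDN3. With median centring CLDN2 was called lower at -0.19 (adjusted p = 0.0214) and CLDN3 higher, and without replicate 2 of the arrays with grade 1 in Cy5 CLDN2 was called lower at -0.18 (adjusted p = 0.047). The call of OCLN was lost with marked backgrounds as measured (adjusted p = 0.11).

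Of the steroid and lactogenic hormone axis, 9 of 35 listed genes were measured, with 3 higher, 4 lower and 2 not called and a median of -0.14, beside 24.1% higher and 46.1% lower among all named genes. PGR was the lowest of them. The growth hormone receptor gene GHR fell by 0.49 and the growth hormone gene GH1 by 0.46 on the log2 scale, and both calls were lost with marked backgrounds as measured (adjusted p = 0.0805 and 0.0617). IGF2, a fetal growth factor gene, was 2.63-fold higher (log2 fold change 1.39 ± 0.08 SE, limma adjusted p = 3.37e-07). The oxytocin receptor gene OXTR had 0.29, a call lost with marked backgrounds as measured (adjusted p = 0.127). CYP19A1, the aromatase gene that makes oestrogen, did not rise well above background in grade 3 (0 of 4 arrays). Under the background correction used here this gives at least a 1.18-fold lower level. The steroid dehydrogenase gene HSD3B2 did not in grade 1 (0 of 4 arrays), which under the same correction gives at least a 1.31-fold higher level. For these bounds each array's dim value was set to the lowest level that counts as well above background, unless the probe's own was higher. CYP19A1 and HSD3B2 were tested only through the grade in which they were higher. Where both grades had to be well above background, the list kept 5 of its 7 calls. With marked backgrounds as measured CYP19A1 and HSD3B2 were each at 1.13-fold, less than these bounds, and both calls were lost (adjusted p = 0.204 for CYP19A1 and 0.16 for HSD3B2). That of CYP19A1 was also lost without replicate 2 of the arrays with grade 1 in Cy5 (0.0655). PRL, the prolactin gene, and ESRRA, an orphan receptor gene, had 0.06 and -0.14 and were not called (adjusted p = 0.35 and 0.0506). ESRRA was called lower with processed signals (adjusted p = 0.047), with the replicate number as a block (0.0362 as a fixed term and 0.0292 by averaging), and without replicate 2 of either dye orientation (0.029 with grade 3 in Cy5 left out and 0.0279 with grade 1 in Cy5 left out).

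The ligand gene of KIT rose, while KIT itself did not pass the test; the difference between them was not tested. KITLG, encoding stem cell factor, had log2 ratios of 1.37, 1.42, 1.57 and 1.65 on the 4 arrays, with levels of 12.24 ± 0.10 in grade 3 and 10.74 ± 0.05 in grade 1 (SD, n = 4 each). It was 2.84-fold higher (log2 fold change 1.50 ± 0.05 SE, limma adjusted p = 8.00e-09), and this call held in every setting tried. Of 10 listed genes of KIT-type receptors and their ligands 7 were measured, and 3, all ligands, were higher. The shares among all named genes were 24.1% higher and 46.1% lower. PDGFA had 0.79 and PDGFB 0.44, and both calls were lost with marked backgrounds as measured (adjusted p = 0.0523 and 0.134). The receptor gene FLT3 fell by 0.47 on the log2 scale, a call lost in the same way (adjusted p = 0.108), while PDGFRB (0.08) and the ligand gene FLT3LG (0.02) were not called, though the dimmer PDGFRB probe was called lower at -0.16. ERBB2 was the only measured gene of 17 listed for its receptor family, ligands and partners, so no ligand or partner can be set beside it.

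Other mast cell genes were lower in grade 3, though CMA1 was at 0.0070 with spike-in scaling. Of 11 listed genes 4 were measured: CMA1, encoding the protease chymase, fell by 0.66, the IgE receptor genes MS4A2 and FCER1A fell by 0.97 and 0.99 on the log2 scale, and KIT was not called. Each of the 3 that fell was below 0 on all 4 arrays (limma adjusted p = 2.02e-06, 4.37e-07 and 7.55e-07), while 46.1% of all named genes were called lower. The summed linear level of the 4 genes was 3434 to 3540 units in grade 3 and 5012 to 5599 units in grade 1. CPA3 and the tryptase genes were not analysed here, and the part of mast cells in the KIT signal was not tested. Whether the RNA came from tissue or from sorted cells is unclear. If it came from mixed cells, fewer cells of a type and less RNA per cell cannot be told apart.

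Markers of other cell types also moved with grade, the directions here being those relative to the other probes of an array, where 24.1% of all named genes were called higher and 46.1% lower. All 7 measured keratinocyte genes and 6 of 7 muscle genes were higher, as were both measured myoepithelial genes (CAV1 and OXTR; KRT5, KRT14, TP63 and ACTA2 were not analysed here) and both milk genes. The summed level of the keratinocyte list was 49519 to 52474 units in grade 3 and 28209 to 33523 units in grade 1, that of the muscle list 19807 to 23534 and 3520 to 4370 units, that of the myoepithelial pair 18717 to 24462 and 17001 to 19428 units, and that of the milk pair 357855 to 468320 and 37639 to 94321 units. CSN2 and LALBA had log2 fold changes of 2.81 and 2.50, above that of TFF3. Lower in grade 3 were 6 of 7 macrophage genes (46724 to 54923 units in grade 3 and 85784 to 96786 in grade 1), 6 of 6 T and NK cell genes (1080 to 1127 and 1565 to 1710), both B cell genes (1577 to 1828 and 2357 to 2705) and 4 of 5 fibroblast genes (307947 to 400230 and 480362 to 550473). So were 4 of 5 endothelial genes (37284 to 44877 and 47516 to 55811), 3 of 4 adipocyte genes (7526 to 8037 and 8718 to 9073) and 2 of 3 red cell genes (146361 to 253026 and 181270 to 310966). RHAG, which made up most of the red cell sum, pointed up in 1 dye orientation. Its log2 ratios were 0.44 and 0.43 with grade 3 in Cy5, against -1.08 and -1.02 with grade 1 in Cy5. COL1A2 of the fibroblast list had -0.06 and 0.32, against -1.28 and -1.17, in the same order. TLR2 of the macrophage list and SELE of the endothelial list were higher, DES of the muscle list was lower, and no measured gene of these lists was below background in a grade. Many of these calls depended on the background step. With marked backgrounds as measured, 0 of the 6 T and NK cell calls, 0 of the 2 myoepithelial, 0 of the 2 red cell, 1 of the 2 B cell, 4 of the 7 keratinocyte, 5 of the 7 muscle, 5 of the 7 macrophage, 4 of the 5 endothelial and 2 of the 3 adipocyte calls were kept, while all 4 fibroblast, all 3 mast cell and both milk calls were. With no dye term the red cell list kept 0 and the myoepithelial pair 1, and with median centring the red cell list kept 0 and the adipocyte list 1. Without replicate 2 of the arrays with grade 1 in Cy5, the T and NK cell list kept 4 calls and the red cell list 1, and the red cell list also kept 1 without replicate 1 of the arrays with grade 3 in Cy5. The adipocyte list kept 2 without replicate 2 of the arrays with grade 3 in Cy5. Spike-in scaling kept 1 of the 4 fibroblast, 2 of the 3 mast cell and 4 of the 7 macrophage calls. It kept 1 B cell, 1 T and NK cell, 2 endothelial, 1 adipocyte and 0 red cell calls. Kept in full were the keratinocyte, myoepithelial and milk calls, with 6 of the 7 muscle calls. The part of these cell types in the changes of TFF3, MUC1 and PGR was not tested.

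By the distance between the 4 log2 ratios, over 918 named genes with a value on every array, the genes most like TFF3 were BMP7, ACAN and MYOC, at distances of 0.53, 0.58 and 0.59. BMP7 is a bone morphogenetic protein gene and ACAN encodes cartilage aggrecan. Those most like MUC1 were CANF2, TCAP and the hepatocyte growth factor receptor gene MET, at 0.24, 0.27 and 0.37. PGR was nearest to the endothelin receptor gene EDNRB, TLR1 and GUCY1A1, at 0.12, 0.14 and 0.14. CLDN3 had nearer neighbours (TPI1, RHBDF2 and SELENOO, 0.05 to 0.09), as had ERBB2 (PPP1CA and BDKRB1, 0.05 to 0.06), and KIT was nearest to P2RY12, XYLT2 and VEGFA (0.11 to 0.15). Of the 4 TCAP probes 1 was called higher and 2 lower.

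All changes are relative to the other probes of the same array. Spike-in controls were lower in grade 3 on all 4 arrays, by mean log2 ratios of -0.72, -0.72, -0.78 and -0.45, and scaling each array to them moved the median of all tested probes to 0.67. On that scale TFF3 was 5.75-fold and MUC1 3.61-fold higher, PGR turned to 0.10, and CLDN3, ERBB2 and the brightest KIT probe had 0.78, 0.64 and 0.58. TFF1, TFF2, CYP19A1, GH1, GHR, ESRRA, FLT3, CLDN2 and CMA1 also turned above 0, at 0.48, 0.09, 0.42, 0.21, 0.17, 0.52, 0.20, 0.57 and 0.0070. So did the median of the steroid and lactogenic hormone axis, at 0.52, and those of the T and NK cell, adipocyte, fibroblast, endothelial and red cell lists. This scaling added the same amount to the fitted log2 fold change of every probe.

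**Figure D4:**
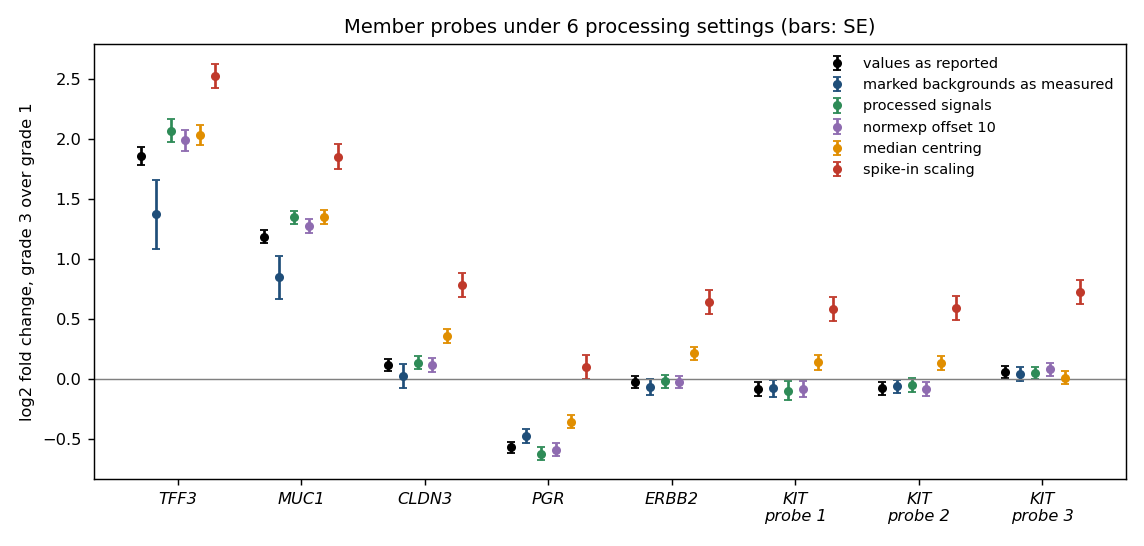
Log2 fold change of grade 3 over grade 1 (vertical axis, bars SE) of the 8 probes under 6 processing settings. TFF3 and MUC1 are above 0 under all 6, PGR is below 0 under all but spike-in scaling, and the other probes lie near 0 except under median centring and spike-in scaling.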

How the data were processed

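RNA of both grades was hybridised to 4 two-colour Agilent arrays. The submitters' processing notes name Feature Extraction 10.7.3.1 as the spot-reading software. Per the file headers, the deposited median signals and their local backgrounds are linear intensity readings. The processed signals, deposited also as log10 ratios of the dyes, and the series' value table served as alternatives. That table matched those ratios once the swapped arrays were turned, and its columns had a median of 0. Direction came from the dyes in the labels.

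In R 4.3.3 with limma 3.58.1, local backgrounds marked as outliers (151 to 2352 per array and channel) were replaced by the array and channel median, a step taken over from earlier work on these data that chose it after seeing counts. Then followed normexp (offset 50), loess without control spots, removal of 11 to 39 marked spots per array and averaging of spots of a probe. No spot was saturated. A probe was fitted if either grade was well above background on every one of the 4 arrays. The two-sided fit had a grade and a dye term, with 2 residual degrees of freedom and 7.50 from the prior. Levels are log2 intensities of each channel, taken after loess and Aquantile. Median signals were 289 to 402 units in Cy5 on backgrounds of 39 to 41, and 215 to 354.5 in Cy3 on 28 to 32. The number of arrays limits the precision. Array ratios correlated at 0.69 to 0.94 across probes, which are not independent, and no files were identical.

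Probes were named by unversioned RefSeq accession in a table of UU_Cfam_GSD_1.0: 1648 of 43603 probes matched, and no coordinates were used since the array design cites another build. The brightest probe stands for its gene in lists. The members and lists were chosen with earlier results of these data known. All members were to be named, with every gene of the related lists open to naming, and the 3 genes nearest in ratio. A few genes taken by this rule are not reported here but remain in the list counts.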

Additional observations from a re-analysis of the deposited data

Results flagged for a closer look

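The 4 array ratios of each of the 8 probes were searched for an array far from the others by Dixon's test, and TFF3 passed its critical value. The ratio of TFF3 was 1.45 (log2) on the replicate 2 array that carried grade 3 in Cy5, while the other arrays gave 1.97, 1.97 and 2.03, a gap over range of 0.89. Without that array the log2 fold change of TFF3 was 1.99. Chance alone marks about 1 in 20 groups of independent normal values. The same array also had the lowest ratio for MUC1, CLDN3, ERBB2 and the 2 brighter KIT probes, with gaps over range between 0.389 and 0.678, none of them past the critical value.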

How the results depend on the processing

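TFF3, MUC1 and PGR kept direction and call in every alternative, except PGR with spike-in scaling (0.10, adjusted p = 0.359). TFF3 lay between 1.37 and 2.52 and MUC1 between 0.84 and 1.85, lowest with marked backgrounds as measured (adjusted p = 0.0336 and 0.0357) and highest with spike-in scaling. Median centring gave CLDN3 0.36 and ERBB2 0.21, both called, and the brighter KIT probes 0.14 and 0.13, not called. Spike-in scaling gave CLDN3 0.78, ERBB2 0.64 and the KIT probes, from the brightest, 0.58, 0.59 and 0.72, all called higher. The calls of that setting, PGR and the counts below included, rest on an SE of 0.10 that all probes share. Leaving out each array gave CLDN3 0.065 to 0.16, ERBB2 -0.052 to 0.0012 and the brightest KIT probe -0.16 to -0.0091, with the calls named above. The mean of the KIT probes gave -0.04 (adjusted p = 0.553). Probes called numbered 11029 higher and 10800 lower, against 2328 and 4418 with marked backgrounds as measured and 32259 and 917 with spike-in scaling. Of the calls 50.5% were higher, against 34.5% and 97.2% in those settings and 63.9% with median centring. Same-numbered arrays did not deviate together (correlation -0.09 across probes, 2 numbers only), so the numbers were not taken as pairs; with the replicate block as a fixed term 10922 probes were higher and 10640 lower, by averaging 11620 and 11272, and no member's call changed. Other causes were not tested. The dimmest KIT probe is the member most limited by signal.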
